A study of Rattus norvegicus with 23 samples.

Results

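Carboxylesterases and aldehyde dehydrogenases are the enzymes described here, through 6 genes: Ces1e, Ces1d, Aldh1b1, Aldh1a1, Aldh2 and Aldh3a2. They were taken as probe sets annotated with exactly 1 of these symbols, and each gene had 1 such probe set, so that 6 genes of 14217 on the array (6 of 31042 probe sets) make up the set and no second probe set could be compared. Kidney RNA of male rats was read on 23 Affymetrix arrays, at 4 months of age and 3 months after surgery. The groups were SBH/y with 1 kidney after right uninephrectomy (n = 6), SBH/y with 2 kidneys after a sham operation (n = 6), SBN/y with 1 kidney after right uninephrectomy (n = 6) and SBN/y with 2 kidneys after a sham operation (n = 5). SBH/y and SBN/y are known as the hypertension-prone and hypertension-resistant lines of the Sabra rat, all rats had ordinary chow, and the labels do not say which kidney of the sham-operated rats was read.

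Carboxylesterases are serine hydrolases of the endoplasmic reticulum that cleave ester and amide bonds of drugs and of stored lipids, and their genes lie in tandem clusters of closely related copies. Aldehyde dehydrogenases oxidise aldehydes to acids with NAD or NADP: acetaldehyde, aldehydes from lipid peroxidation, and retinaldehyde, the precursor of retinoic acid. Both families are prominent in liver, and in the kidney the proximal tubule carries many of these enzymes.

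The members were chosen by measured values of these same arrays. Which comparison led to each gene is not recorded, and the strain difference of Ces1e with 2 kidneys was among the results known. All values of the 6 members are therefore given as a description with standard errors or 95% intervals and no p-values. "Past the threshold" says only that a member lay at an adjusted p under 0.05 in the limma fit over all 31042 probe sets. Levels are log2 values, of which the median over all probe sets was 4.662, and the levels of different probe sets are not compared with each other. Probe sequences were not used. A strain difference in RNA level therefore cannot be told apart from a sequence difference between the strains under the probes of a member.

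The promoters of Ces1e and Ces1d are shown because these genes are neighbours on chromosome 19 that differed between the strains in opposite directions. Both sequences are RefSeq's, build GRCr8, plus strand, from 250 bases before to 50 after the annotated start, at chr19:30005923-30006222 for Ces1e and chr19:30046244-30046543 for Ces1d. Capitals mark the bases that are identical in their local alignment.
Ces1e: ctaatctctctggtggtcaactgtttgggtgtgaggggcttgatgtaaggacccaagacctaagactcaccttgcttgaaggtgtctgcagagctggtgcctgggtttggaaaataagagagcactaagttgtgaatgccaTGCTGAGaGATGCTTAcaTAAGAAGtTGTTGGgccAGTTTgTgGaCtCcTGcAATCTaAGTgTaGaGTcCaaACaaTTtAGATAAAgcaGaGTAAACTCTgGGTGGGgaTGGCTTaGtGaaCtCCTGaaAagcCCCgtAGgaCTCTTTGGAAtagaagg
Ces1d: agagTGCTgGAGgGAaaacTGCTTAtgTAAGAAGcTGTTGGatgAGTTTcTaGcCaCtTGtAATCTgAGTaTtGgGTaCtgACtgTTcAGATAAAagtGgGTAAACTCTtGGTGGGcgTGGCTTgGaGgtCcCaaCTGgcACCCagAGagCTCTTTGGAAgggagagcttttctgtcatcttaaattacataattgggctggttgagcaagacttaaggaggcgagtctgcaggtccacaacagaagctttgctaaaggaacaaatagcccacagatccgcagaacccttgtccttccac
The alignment paired 149 bases, of which 108 (72.5%) were identical, with 4 gaps. It covered positions -109 to 42 of Ces1e and -246 to -91 of Ces1d, counted from 0 at the annotated start, so that the shared stretch lies at different distances from the starts. Of 33468 other rat promoters of this length, 0 aligned to that of Ces1e with a higher score than Ces1d. These are sequences of the reference strain, and the sequences of SBH/y and SBN/y were not used here.

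The promoter of Aldh1b1, the aldehyde dehydrogenase among the members with the largest strain difference, lies at chr5:64858750-64859049 on the plus strand (RefSeq, GRCr8). Capitals mark its CCAAT box, read on the opposite strand.
Aldh1b1: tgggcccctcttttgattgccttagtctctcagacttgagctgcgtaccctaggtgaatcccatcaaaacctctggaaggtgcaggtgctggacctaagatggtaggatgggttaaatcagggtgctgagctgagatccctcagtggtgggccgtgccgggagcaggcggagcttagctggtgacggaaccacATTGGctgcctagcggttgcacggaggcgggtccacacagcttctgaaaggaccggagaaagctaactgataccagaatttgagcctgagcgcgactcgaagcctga
The CCAAT letters, a common binding site of the factor NF-Y, stood at -57 in Aldh1b1, on the minus strand, and occur on either strand in 37.5% of 33469 promoters of this length. The TATA box was searched as TATAAA on both strands and occurs in 14.2% of promoters. The GC box was searched likewise, as GGGCGG, and occurs in 33.1%. Neither of these was in the Aldh1b1 window, and no site of the 3 motifs was in that of Ces1e. The Ces1d window held CCAAT at -180 and -58, on the minus strand, which the capitals above do not mark. Of the 6 members, 5 had an entry in the promoter table, and Aldh2 is named only.

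Arrays of 1 group correlated with each other between 0.990 and 0.997, and array medians lay between 4.65 and 4.69. The second principal component (13.4% of the variance) ran from replicate 3 of SBH/y with 2 kidneys to replicate 2 of SBH/y with 1 kidney. Without both arrays, all calls of the members were as with them. The excess of 3' over 5' signal in the GAPDH control probe sets, a measure of RNA integrity, moved with the groups: 0.53 ± 0.11 log2 in SBH/y with 1 kidney, 0.46 ± 0.06 in SBH/y with 2, 0.45 ± 0.04 in SBN/y with 1 (SD, n = 6 each) and 0.35 ± 0.03 in SBN/y with 2 (SD, n = 5). Proximal tubule markers were read at high levels in all groups, as the label of the tissue requires, with mean levels of the 11 markers between 10.46 and 10.67 log2 per array. Whole kidneys were read, so fewer cells of a type and less RNA per cell cannot be told apart.

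Ces1e, the first of the 2 carboxylesterases, was lower in SBH/y than in SBN/y, with 1 kidney and with 2. Its mouse counterpart is known as egasyn, which holds beta-glucuronidase in the endoplasmic reticulum. In SBH/y with 1 kidney the lowest, median and highest levels were 4.20, 4.75 and 4.90, and in SBN/y with 1 kidney they were 7.18, 7.36 and 7.59. In SBH/y with 2 kidneys they were 4.52, 4.94 and 5.13, against 7.61, 7.13, 7.14, 7.38 and 7.20 in the 5 arrays of SBN/y with 2 kidneys. Every SBH/y array lay below every SBN/y array, with 1 kidney and with 2.

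The strain difference of Ces1e, SBH/y minus SBN/y, was -2.70 ± 0.11 log2 (SE; 95% interval -2.93 to -2.48) with 1 kidney, which is 6.5-fold lower. With 2 kidneys it was -2.38 ± 0.11 (-2.62 to -2.14), 5.2-fold lower. The SBH/y levels were near the median of all probe sets and above the Xist probe sets of these males, which reached 3.13, and background signal makes differences at such levels look smaller.

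Ces1d, the adjacent gene, went the other way and was higher in SBH/y. Its mouse counterpart is known as triacylglycerol hydrolase, which mobilises stored triglyceride for secretion. The lowest, median and highest levels were 7.13, 7.42 and 8.07 in SBH/y with 1 kidney and 6.33, 6.51 and 6.73 in SBN/y with 1 kidney. They were 7.39, 7.55 and 7.68 in SBH/y with 2 kidneys, against 6.54, 6.30, 6.62, 6.53 and 6.54 in the arrays of SBN/y with 2 kidneys. The strains did not overlap. The difference was 0.95 ± 0.11 (SE; 0.73 to 1.17) with 1 kidney and 1.03 ± 0.11 (0.80 to 1.26) with 2, which is 1.93-fold and 2.04-fold higher.

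Within a strain, the carboxylesterases of rats with 1 kidney and with 2 overlapped. The response of Ces1e to uninephrectomy was -0.22 ± 0.11 (SE; -0.44 to 0.01) in SBH/y and 0.10 ± 0.11 (-0.13 to 0.34) in SBN/y. That of Ces1d was -0.06 ± 0.11 (-0.28 to 0.16) in SBH/y and 0.02 ± 0.11 (-0.21 to 0.25) in SBN/y. None of these 4 responses was past the threshold. The widest spread in a group was that of Ces1d in SBH/y with 1 kidney (SD 0.32, n = 6), where replicate 3 stood at 8.07 and the next array at 7.51.

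**Figure D1:**
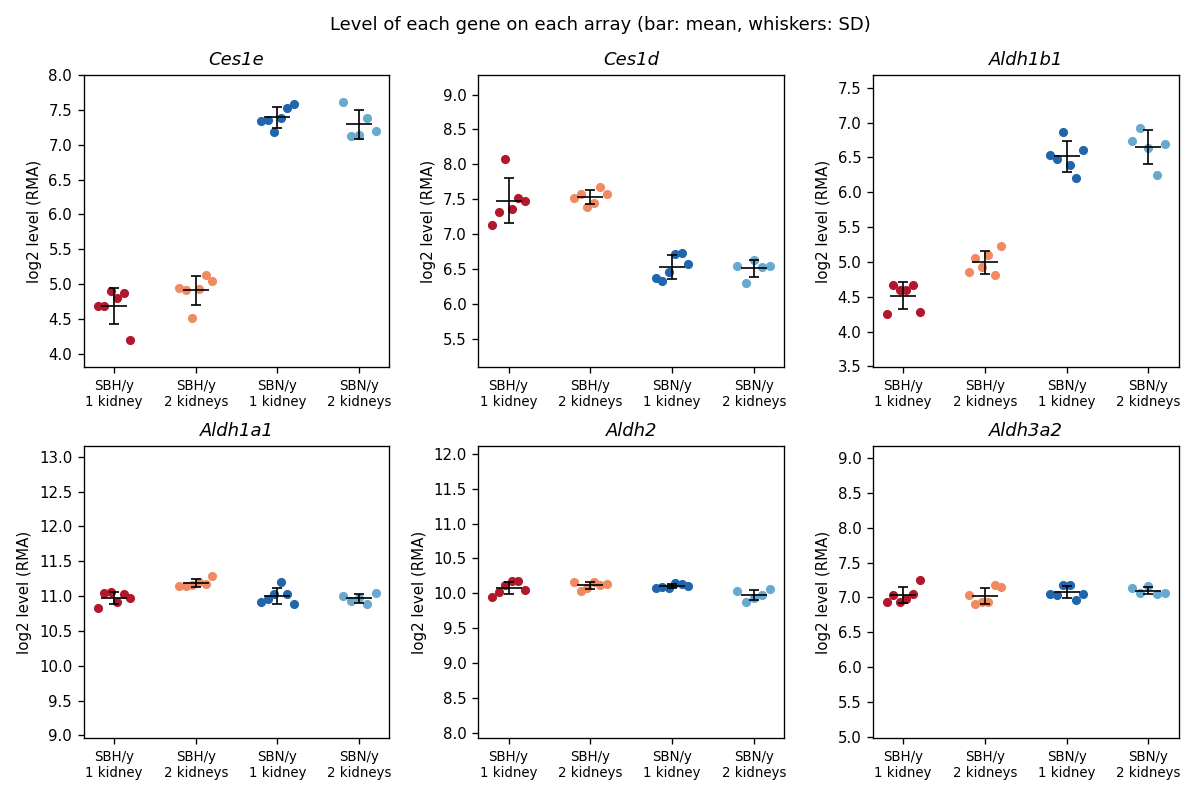
Level of each gene (log2, RMA) on each array, in 4 groups of strain and kidney number; points are arrays, bars are means and whiskers SD, and every panel spans the same number of log2 units. Ces1e and Aldh1b1 lie lower and Ces1d higher in both SBH/y groups, while Aldh1a1, Aldh2 and Aldh3a2 differ little.

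Aldh1b1, a mitochondrial enzyme that oxidises acetaldehyde and retinaldehyde, was lower in SBH/y and lower still after uninephrectomy. In SBH/y with 1 kidney its lowest, median and highest levels were 4.25, 4.60 and 4.67, and in SBH/y with 2 kidneys 4.81, 4.99 and 5.23. In SBN/y with 1 kidney they were 6.20, 6.50 and 6.87, and the arrays of SBN/y with 2 kidneys read 6.73, 6.92, 6.63, 6.25 and 6.69. The SBH/y groups did not overlap each other or any SBN/y array, whereas the SBN/y groups overlapped.

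The strain difference of Aldh1b1 was -2.00 ± 0.11 (SE; -2.22 to -1.78) with 1 kidney, 4-fold lower, and -1.65 ± 0.11 (-1.89 to -1.42) with 2, 3.14-fold lower. In SBH/y it fell by 0.48 ± 0.11 (SE; interval of the difference -0.70 to -0.26) after uninephrectomy, and in SBN/y the response was -0.13 ± 0.11 (-0.37 to 0.10). The difference between the responses, -0.35 ± 0.16 (-0.67 to -0.03), was not past the threshold, so a larger response in SBH/y was not shown. With 1 kidney the SBH/y median lay just under the median of all probe sets, where background signal makes differences look smaller.

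Aldh1a1, the cytosolic enzyme that makes retinoic acid from retinaldehyde, had its highest mean in SBH/y with 2 kidneys. In SBH/y with 1 kidney its lowest, median and highest levels were 10.83, 11.00 and 11.06, against 11.14, 11.17 and 11.29 in SBH/y with 2 kidneys. They were 10.89, 10.99 and 11.20 in SBN/y with 1 kidney, and the arrays of SBN/y with 2 kidneys read 11.00, 10.93, 10.97, 10.89 and 11.05. All 6 arrays of SBH/y with 2 kidneys lay above those of SBH/y with 1 kidney and SBN/y with 2.

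With 2 kidneys Aldh1a1 was higher in SBH/y by 0.22 ± 0.06 (SE; 0.10 to 0.34), and with 1 kidney the strain difference was -0.03 ± 0.06 (-0.14 to 0.09). In SBH/y it fell by 0.21 ± 0.06 (-0.32 to -0.10) after uninephrectomy, while in SBN/y the response was 0.03 ± 0.06 (-0.09 to 0.15). The difference between the responses was -0.24 ± 0.08 (-0.41 to -0.08) and was not past the threshold. The fall in SBH/y lost its call without replicate 6 of SBH/y with 2 kidneys (-0.19), without replicate 1 (-0.18) or 4 (-0.20) of SBH/y with 1 kidney, with the GAPDH measure as a covariate (-0.20) and in a fit of the SBH/y groups alone (-0.21). The strain difference lost its call without replicate 4 of SBN/y with 2 kidneys (0.20).

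Aldh2, the mitochondrial enzyme that clears acetaldehyde and lipid peroxidation aldehydes, differed little between the groups. It ranged from 9.95 to 10.17 in SBH/y with 1 kidney, from 10.04 to 10.16 in SBH/y with 2, from 10.08 to 10.15 in SBN/y with 1 and from 9.87 to 10.06 in SBN/y with 2. In SBN/y the 2 groups did not overlap, with a difference of 0.13 ± 0.05 (SE; 0.03 to 0.24) that was not past the threshold. In SBH/y the response to uninephrectomy was -0.04 ± 0.05 (-0.14 to 0.06). The difference between the responses, -0.17 ± 0.07 (-0.32 to -0.03), was not past the threshold. The strain difference was -0.03 ± 0.05 (-0.13 to 0.07) with 1 kidney and 0.14 ± 0.05 (0.04 to 0.25) with 2. The value with 2 kidneys was past the threshold only with a trended and robust variance, among the alternatives run.

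Aldh3a2, the fatty aldehyde dehydrogenase whose loss in humans causes Sjögren-Larsson syndrome, overlapped in all 4 groups. Its levels ran from 6.93 to 7.25 in SBH/y with 1 kidney, from 6.91 to 7.18 in SBH/y with 2, from 6.97 to 7.18 in SBN/y with 1 and from 7.05 to 7.17 in SBN/y with 2. The strain difference was -0.04 ± 0.06 (SE; -0.17 to 0.08) with 1 kidney and -0.07 ± 0.06 (-0.20 to 0.06) with 2. The responses to uninephrectomy were 0.01 ± 0.06 (-0.12 to 0.13) in SBH/y and -0.02 ± 0.06 (-0.15 to 0.11) in SBN/y.

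Of the 6 members, 3 were past the threshold between the strains with 1 kidney (1 higher and 2 lower in SBH/y), where 14.0% of all probe sets were (7.55% higher and 6.43% lower). With 2 kidneys 4 were (2 higher and 2 lower), where 9.07% of all probe sets were (4.32% higher and 4.75% lower). Over 14167 genes, 17.7% were called in either direction with 1 kidney and 11.0% with 2. After uninephrectomy 2 members fell in SBH/y, beside 5.04% of probe sets called and 1.97% called lower, and 0 were called in SBN/y, beside 0.168%. The interaction called 0 members, beside 0.254% of probe sets. The groups did not overlap for 3 members between strains with 1 kidney (7.62% of all probe sets), 4 with 2 kidneys (7.57%), 2 in SBH/y (2.84%) and 1 in SBN/y (1.26%). These counts describe genes that were picked with such values known, and nothing is read from them.

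**Figure D2:**
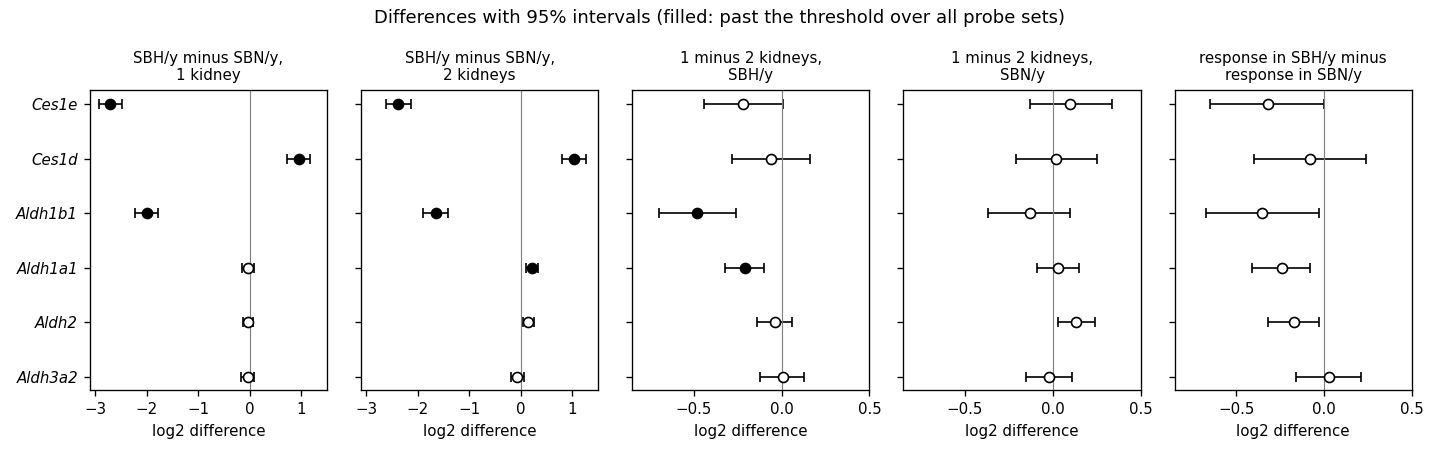
Log2 differences of the 6 genes (points) with 95% intervals (whiskers) in 5 comparisons; filled points were past the threshold over all probe sets, and the left 2 panels have a wider axis than the others. Ces1e and Aldh1b1 are lower and Ces1d higher in SBH/y with 1 kidney and with 2, and the intervals of the uninephrectomy responses exclude 0 for Aldh1b1 and Aldh1a1 in SBH/y and for Aldh2 in SBN/y.

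The other members of both families were compared through a list of 38 family genes besides the 6, of which 16 were measured. Of 3 further carboxylesterases, 0 were past the threshold between strains or after uninephrectomy. Ces2c, of another branch of the family, had strain differences of 0.08 ± 0.06 (SE) with 1 kidney and 0.02 ± 0.07 with 2. Ces1c and Ces5a were read at 3.00 and 2.80 in SBH/y with 1 kidney, inside the range of the Xist probe sets (2.14 to 3.13), and so not above background. The probe sequences were not used here, so which of the closely related carboxylesterase copies each probe set reads was not tested.

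Of 13 further aldehyde dehydrogenases, 3 were higher and 3 lower in SBH/y with 1 kidney, with a list median of 0.02 against -0.01 over all probe sets. With 2 kidneys 2 were higher and 1 lower. Over 14167 genes, 17.7% were called in either direction with 1 kidney and 11.0% with 2. Aldh1a2, the retinaldehyde dehydrogenase known best from the embryo, was higher by 0.73 ± 0.07 (SE; limma adjusted p = 1.97e-08) with 1 kidney and by 0.44 ± 0.08 (adjusted p = 0.000212) with 2. Aldh7a1, which detoxifies the aldehyde of lysine breakdown, was higher by 0.23 ± 0.05 (limma adjusted p = 0.00283) with 1 kidney and by 0.29 ± 0.05 (adjusted p = 0.000484) with 2. Aldh18a1, which makes the proline precursor pyrroline carboxylate, was higher by 0.36 ± 0.08 with 1 kidney (limma adjusted p = 0.00191). Aldh1l1, an enzyme of folate metabolism, was lower in SBH/y with 1 kidney (-0.45 ± 0.07; limma adjusted p = 3.46e-05), and so was Aldh5a1, which breaks down the GABA product succinic semialdehyde (-0.40 ± 0.09; adjusted p = 0.0018). The strain difference of Aldh5a1 with 2 kidneys (-0.29 ± 0.09; limma adjusted p = 0.0449) lost its call in 15 of 31 alternatives.

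In SBH/y kidneys, 2 of these 13 genes rose after uninephrectomy and 0 fell, beside 5.04% of all probe sets called. Aldh18a1 rose by 0.39 ± 0.08 (SE; limma adjusted p = 0.00323) to a mean level of 5.63, against 5.25 with 2 kidneys. Aldh1a2 rose by 0.26 ± 0.07 (adjusted p = 0.0366), a call lost in 12 of 31 alternatives, among them the GAPDH covariate. In SBN/y 0 of 13 were called, beside 0.168% of all probe sets, and the interaction called 0 of 13, beside 0.254%.

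**Figure D3:**
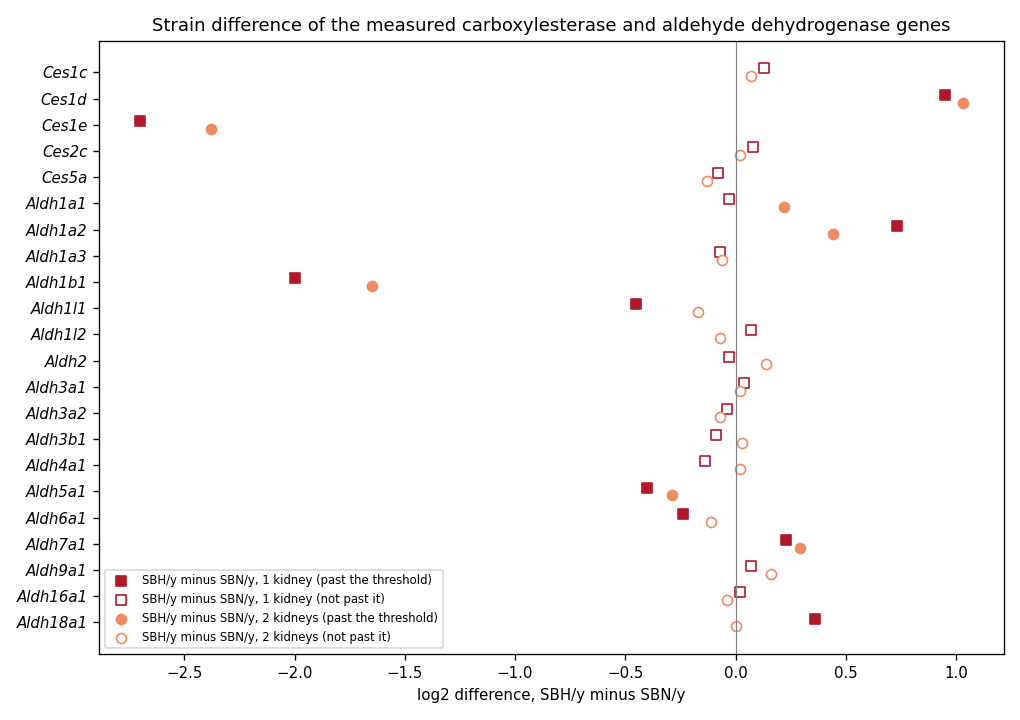
Strain difference (log2, SBH/y minus SBN/y) of the measured carboxylesterase and aldehyde dehydrogenase genes, squares with 1 kidney and circles with 2; filled symbols were past the threshold over all probe sets. Ces1e (-2.70 and -2.38) and Aldh1b1 (-2.00 and -1.65) lie far to the left of the other genes drawn, and Ces1d (0.95 and 1.03) and Aldh1a2 (0.73 and 0.44) to the right.

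Retinoid genes were examined because Aldh1a1 and Aldh1b1 oxidise retinaldehyde. Of 23 measured, 3 were lower in SBH/y with 1 kidney and the same number with 2, and 0 were higher. Over 14167 genes, 17.7% were called in either direction with 1 kidney and 11.0% with 2. Rbp4, the plasma carrier of retinol, was lower by -1.17 ± 0.12 (SE; limma adjusted p = 2.58e-08) with 1 kidney and by -0.96 ± 0.12 (adjusted p = 2.86e-06) with 2. Stra6, the receptor of that carrier, was lower by -0.80 ± 0.11 (adjusted p = 7.1e-06) and -0.59 ± 0.12 (adjusted p = 0.00101), and Rdh16, a retinol dehydrogenase, by -0.64 ± 0.08 (adjusted p = 1.45e-06) and -0.60 ± 0.09 (adjusted p = 1.41e-05). In SBH/y Rbp4 fell by 0.48 ± 0.12 after uninephrectomy (limma adjusted p = 0.0131), a call lost with the GAPDH covariate and in a fit of the SBH/y groups alone. Rdh16 fell by 0.29 ± 0.08 (adjusted p = 0.0384), a call lost in 12 of 31 alternatives. Over all probe sets, 1.97% were called lower in SBH/y. The list's median was 0.00 in SBN/y, where 0 of 23 were called, beside 0.168% of all probe sets.

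Among 19 other hydrolases, most of them of esters and lipid epoxides, 3 were higher and 2 lower in SBH/y with 1 kidney, and likewise with 2. Over 14167 genes, 17.7% were called in either direction with 1 kidney and 11.0% with 2. Lpl, the lipoprotein lipase gene, was higher by 1.43 ± 0.08 (SE; limma adjusted p = 9.13e-14) with 1 kidney and by 1.58 ± 0.08 (adjusted p = 3.44e-14) with 2. Ephx2, the soluble epoxide hydrolase, was lower by -0.73 ± 0.06 (adjusted p = 2.1e-09) and -0.79 ± 0.07 (adjusted p = 1.33e-09). Ephx1, the microsomal epoxide hydrolase, was higher by 0.20 ± 0.06 (adjusted p = 0.0238) with 1 kidney and by 0.30 ± 0.06 (adjusted p = 0.00181) with 2. Mgll, the monoglyceride lipase, was higher by 0.29 ± 0.09 with 1 kidney (limma adjusted p = 0.0198), a call lost without replicate 3 of SBN/y with 1 kidney and in a fit of the groups compared alone. Bphl, a serine hydrolase known in humans to activate valacyclovir, was lower with 1 kidney (-0.24 ± 0.05; limma adjusted p = 0.00075), and Pon3, a paraoxonase, with 2 (-0.24 ± 0.06; adjusted p = 0.00762). After uninephrectomy in SBH/y, Pon2, a paraoxonase, rose by 0.27 ± 0.06 (limma adjusted p = 0.00275), and Gusb, the beta-glucuronidase that binds egasyn in the mouse, by 0.25 ± 0.06 (adjusted p = 0.0161). The call of Gusb was lost in 5 of 31 alternatives, among them the GAPDH covariate and leaving out replicate 2 of either SBH/y group.

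Of 21 other genes of aldehyde and alcohol metabolism, 0 were higher and 3 lower in SBH/y with 1 kidney, and 3 were higher and 3 lower with 2. Over 14167 genes, 17.7% were called in either direction with 1 kidney and 11.0% with 2. Acss2, which turns acetate into acetyl-CoA, was lower by -0.39 ± 0.05 (SE; limma adjusted p = 5.38e-07) with 1 kidney and by -0.25 ± 0.05 (adjusted p = 0.000878) with 2, whereas the mitochondrial Acss1 was higher by 0.55 ± 0.08 with 2 (adjusted p = 2.18e-05). Catalase, Cat, was lower by -0.25 ± 0.06 with 1 kidney (limma adjusted p = 0.00409). Akr7a3, an aldehyde reductase, was lower with 1 kidney too (-0.22 ± 0.07; adjusted p = 0.0211), a call lost in 5 of 31 alternatives. The carbonyl reductase gene Cbr3 was lower with 2 (-0.54 ± 0.11; limma adjusted p = 0.00154). Akr1b10, an aldo-keto reductase, was higher by 0.55 ± 0.09 with 2 kidneys (limma adjusted p = 0.000141). After uninephrectomy 3 of the 21 fell in SBH/y, beside 1.97% of all probe sets called lower. Among them were Acss2, by 0.19 ± 0.05 (limma adjusted p = 0.0168), and Dcxr, the xylulose reductase, by 0.21 ± 0.06 (adjusted p = 0.036), a call lost in 10 of 31 alternatives. Akr1b1, the aldose reductase, fell by 0.41 ± 0.11 in SBH/y (adjusted p = 0.0212) and by 0.68 ± 0.11 in SBN/y (adjusted p = 0.00699), where it was the only gene called of the 21. The SBH/y call of Akr1b1 was lost in 4 of 31 alternatives, among them the GAPDH covariate and leaving out replicate 2 of either SBH/y group, and that of Acss2 in 3 of 31.

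The genes next to each member were examined by their order in RefSeq (GRCr8), with the 5 nearest measured genes on either side. Around each of Ces1e and Ces1d on chromosome 19, in windows that overlap, 0 of 9 neighbours that are not members differed between strains with 1 kidney and 2 with 2 kidneys, where 17.7% and 11.0% of 14167 genes did. The neighbours called, the same in both windows, were Hmox1, the heme oxygenase gene (0.51 ± 0.11, SE), and Mmp2, a matrix metalloproteinase gene (-0.53 ± 0.08). Rasd2, the next measured gene before Ces1e, had differences of -0.05 ± 0.09 with 1 kidney and -0.03 ± 0.10 with 2, and Ces1c, the next after Ces1d, was not above background. The neighbours' differences were smaller than those of Ces1e and Ces1d with 1 kidney and with 2.

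Around Aldh1b1 on chromosome 5, 1 of 10 neighbours differed between strains with 1 kidney and 2 with 2 kidneys. Exosc3, a subunit of the RNA exosome, lies 3 measured genes before it and was lower in SBH/y by -1.05 ± 0.08 (SE; limma adjusted p = 2.45e-10) with 1 kidney and by -0.97 ± 0.09 (adjusted p = 4.14e-09) with 2. Stra6l was lower with 2 kidneys (-0.69 ± 0.13; limma adjusted p = 0.000538), and its value with 1 kidney was -0.27 ± 0.13 (adjusted p = 0.175). The genes on both sides of Aldh1b1, Shb and Igfbpl1, had differences of 0.10 ± 0.08 and 0.12 ± 0.07 with 1 kidney. These neighbours were chosen after values of the members had been seen.

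**Figure D4:**
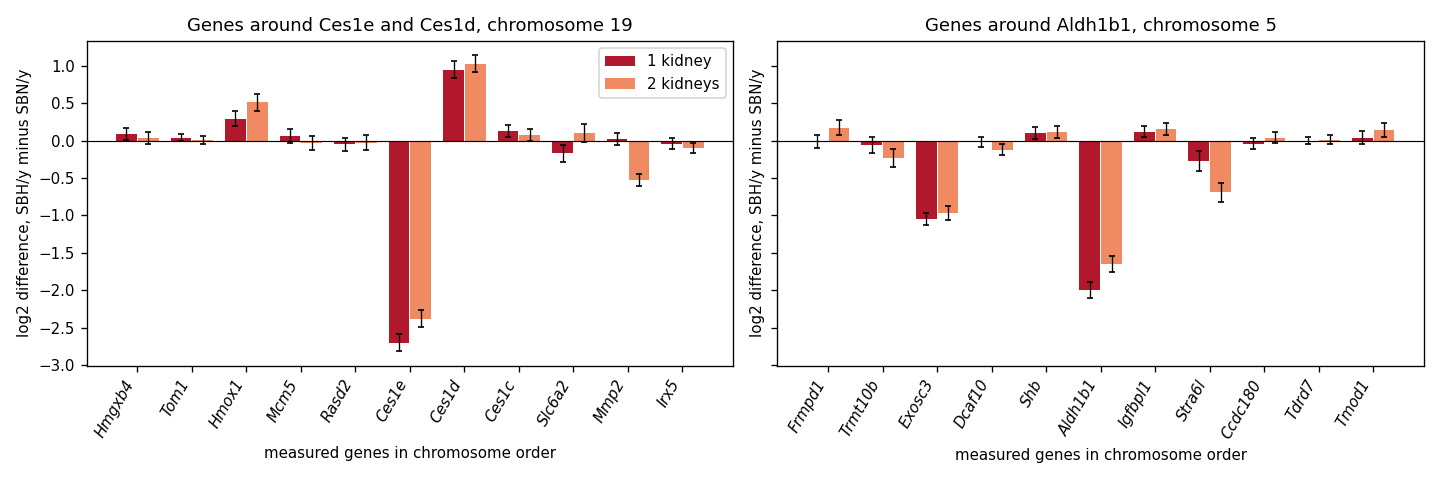
Strain difference (log2, SBH/y minus SBN/y; bars, with SE as whiskers) of Ces1e and of Aldh1b1 and the 5 measured genes on each side in chromosome order, with 1 kidney and with 2. Ces1e (-2.70 and -2.38) and Ces1d (0.95 and 1.03) stand side by side in opposite directions, and Exosc3 (-1.05 and -0.97) lies near Aldh1b1.

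Genes of like pattern were sought among 9418 named genes by the Pearson r over the 23 arrays, and the r of deviations from the group means is given beside it. Since the strains part on the leading members, r over all arrays mostly restates a strain difference. Ces1e was most like Ly6i (r = 0.990; 0.44 within groups), C1qtnf3 (0.981; 0.54) and Oxsm (0.979; 0.37). Ces1d was most like Enpp6 (r = 0.959; 0.67 within groups), the monocarboxylate transporter gene Slc16a1 (0.959; 0.85) and the antithrombin gene Serpinc1 (0.959; 0.60). Aldh1b1 was most like Asrgl1 (r = 0.983; 0.53 within groups), Mpv17l (0.976; 0.36) and the organic anion transporter gene Slco1a3 (0.973; 0.36).

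The remaining members had lower r over the 23 arrays. Their r within groups was 0.55 to 0.80, against 0.36 to 0.54 for Ces1e and Aldh1b1 and 0.60 to 0.85 for Ces1d. These genes were picked by r over all arrays, and nothing is read from the r within groups. Aldh1a1 was most like Asb9 (r = 0.813; 0.70 within groups), Selenbp1 (0.787; 0.63) and Rassf6 (0.777; 0.55). Aldh2 was most like Akr1b10 (r = 0.799; 0.73 within groups), the sorbitol dehydrogenase gene Sord (0.771; 0.60) and Gba2 (0.746; 0.71). Of these 3, 2 belong to the aldehyde and alcohol list, which was chosen with results of these data known, so nothing is read from this. Aldh3a2 was most like Fam151b (r = 0.768; 0.76 within groups), Camsap2 (0.764; 0.80) and Tbce (0.759; 0.76).

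Markers of other cells were set beside the members. Over 14167 genes, 17.7% were called between strains with 1 kidney and 11.0% with 2. Between strains, 6 of 6 myeloid markers were higher in SBH/y with 1 kidney (list median 0.64) and 3 of 6 with 2 (0.23), among them the lysozyme gene Lyz2 (1.02 ± 0.08 and 0.78 ± 0.08, SE). Their summed linear level ran from 5615 to 6822 in SBH/y with 1 kidney against 3012 to 4526 in SBN/y with 1, and from 4028 to 4529 in SBH/y with 2 against 3009 to 3220 in SBN/y with 2, without overlap. Of 4 intercalated cell markers, 3 were lower in SBH/y with 1 kidney and 1 was higher with 2, with sums of 920 to 1042 against 1066 to 1195 with 1 kidney and of 1120 to 1312 against 1153 to 1233 with 2. Of 11 proximal tubule markers, 0 were higher and 2 lower with 1 kidney, and 1 was higher and 1 lower with 2. Of 6 principal cell markers, 2 were higher and 1 lower with 1 kidney and with 2. Of 6 distal tubule markers 1 was lower in both comparisons, and of 5 podocyte and 5 endothelial markers 1 each was lower with 1 kidney and 0 with 2.

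Of the cells that may lie next to or outside the kidney, 2 of 7 measured fat cell genes were lower in SBH/y with 1 kidney and 3 with 2, among them Ucp1 (-1.29 ± 0.35 and -1.77 ± 0.36, SE) and Fabp4 (-0.69 ± 0.22 and -0.83 ± 0.23). The summed linear level of the fat list ran from 291 to 375 in SBH/y with 1 kidney against 317 to 502 in SBN/y with 1, and from 298 to 393 in SBH/y with 2 against 334 to 637 in SBN/y with 2. These ranges overlapped. Of 8 liver genes, 1 was higher and 1 lower in SBH/y with 1 kidney, and 0 were higher and 1 lower with 2. Albumin, Alb, had group means from 3.60 to 3.68, near the range of the Xist probe sets. The fibrinogen gene Fgb was higher with 1 kidney (0.54 ± 0.11), and F2, the prothrombin gene, was lower in SBH/y with 1 kidney (-0.74 ± 0.13) and with 2 (-0.84 ± 0.13). The liver sum was 157 to 175 in SBH/y with 1 kidney against 184 to 268 in SBN/y with 1, and 151 to 176 in SBH/y with 2 against 205 to 273 in SBN/y with 2, without overlap. F2 had the highest mean of the 8 in every group and weighs most in this sum. The mean log2 level of the list overlapped, at 3.93 to 4.12 against 4.00 to 4.13 with 1 kidney. With 2 kidneys it was 3.83 to 4.03 against 3.96 to 4.10. Of 4 adrenal cortex genes 0 were called. The part of these cells in the strain differences was not tested.

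In SBH/y after uninephrectomy, where Aldh1b1 and Aldh1a1 fell, 1 of 11 proximal tubule markers fell, Slc7a13, a transporter gene of the last proximal segment (-0.29 ± 0.06, SE; limma adjusted p = 0.00147). The summed linear level of these 11 ran from 29133 to 31466 with 1 kidney and from 31606 to 32860 with 2, without overlap. In this sum the genes with the highest levels weigh most. The mean log2 level of the 11 overlapped, at 10.46 to 10.66 with 1 kidney and 10.54 to 10.61 with 2. All 6 myeloid markers rose, with sums of 5615 to 6822 with 1 kidney against 4028 to 4529 with 2. Of the other lists, 3 of 5 podocyte, 3 of 4 intercalated cell, 2 of 5 endothelial, 1 of 6 principal cell and 0 of 6 distal tubule markers fell, as did 1 of 7 fat cell markers, while 1 of 8 liver markers, Fgb, rose. Over all probe sets, 5.04% were called and 1.97% were called lower. Podocyte sums were 606 to 725 with 1 kidney against 731 to 881 with 2. The GAPDH measure was 0.53 against 0.46. With the GAPDH covariate Aldh1b1 was past the threshold as well (-0.50 ± 0.12), and Aldh1a1 was not (-0.20 ± 0.06). The part of these shifts in the falls of Aldh1b1 and Aldh1a1 was not tested.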

How the data were processed

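RNA of rat kidney was measured on 23 Affymetrix arrays. Per the submitters' processing notes, GCOS and RMA were used, and the deposited values are log2 signals of 31099 probe sets. RMA gives all arrays nearly the same distribution, so differences are relative to the other probe sets. Further settings are not given in the sources used here. After 57 control probe sets were left out, 31042 were fitted with limma 3.58.1 in R 4.3.3 as 4 group means and 5 contrasts, with Benjamini-Hochberg adjustment and a threshold of 0.05, and the script was tested on simulated data. The array count limits the precision. Labels do not tie samples to separate animals, so a p-value reflects only how much the samples vary, which may be technical, and no scan date was used as a batch.

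The members and lists were chosen with earlier results of these data known. From each list up to 4 genes a contrast, those past the threshold with the smallest p, were named, and for Aldh7a1 and Ephx1 the other called strain difference was added after values were seen. The 3 genes most like each member by Pearson r were named too, and neighbours were added after values were seen. Symbols came from the platform annotation, where 20826 probe sets had 1 symbol, 436 several and 9780 none. RefSeq (GRCr8) gave promoters and gene order. Alternatives were another normalization, variance model, filter, 1 probe set per gene, a replicate block, a GAPDH covariate, fits of only the groups compared, and leaving out single arrays or both ends of the second component. Same-numbered samples' deviations correlated between -0.17 and 0.26, so numbers were not taken as pairs.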

Additional observations from a re-analysis of the deposited data

Results flagged for a closer look

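Of 24 groups of values examined (6 genes in 4 groups), 3 held an array whose gap to its neighbour was large against the group's range, and chance alone gives about 1 in 20. Ces1e in SBH/y with 1 kidney had replicate 6 at 4.20, with the next array at 4.68, a gap of 0.691 of the range. Ces1e in SBH/y with 2 kidneys had replicate 3 at 4.52, with the next at 4.91, a gap of 0.643 of the range. Replicate 3 also stands at an end of the second principal component. Ces1d in SBN/y with 2 kidneys had replicate 2 at 6.30, with the next at 6.53, a gap of 0.713 of the range.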

How the results depend on the processing

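Over 31 alternatives for each difference (30 for the interaction), 3 of 30 results of the members changed their call, and none moved by a replicate SD. The strain difference of Ces1e ranged from -2.74 to -2.60 with 1 kidney and from -2.42 to -2.30 with 2, that of Ces1d from 0.83 to 1.03 and from 0.98 to 1.14, and that of Aldh1b1 from -2.06 to -1.93 and from -1.75 to -1.58. The fall of Aldh1b1 in SBH/y ranged from -0.53 to -0.43. The results that changed call are those of Aldh1a1 and Aldh2 given above. Of 38 results of other list genes, 10 lost their call under some alternative and 0 reversed.

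With 1 probe set per gene, 14217 features were tested rather than 31042. This gave 2810 calls between strains with 1 kidney, against 4342, and 1748 with 2 kidneys, against 2817. The share of tested features that was called was larger in both comparisons. The interaction gave 124 calls with a trended and robust variance and 124 with the GAPDH covariate, against 79, and the cause was not tested. Leaving out single arrays gave 3713 to 4516 calls between strains with 1 kidney, 2412 to 3002 with 2, 1057 to 1765 for uninephrectomy in SBH/y, 24 to 78 in SBN/y (against 52) and 52 to 157 for the interaction. In SBN/y the count shifted far without replicate 1 (26) or 3 (24) of SBN/y with 1 kidney and without replicates 1 (32), 2 (34), 3 (24) or 4 (25) of SBN/y with 2, and was 78 without replicate 4 of SBN/y with 1 kidney. The interaction shifted far without replicate 3 (157) or 5 (133) of SBH/y with 1 kidney and replicate 4 (131) or 6 (52) of SBN/y with 1. With the replicate number as a block the counts were 4302, 2718, 1515, 48 and 67 in the same order, and no call of a member changed. No other probe set of a member was run, because each has 1.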

Other observations

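Among 10 neighbours each, 3 of Aldh1a1, 3 of Aldh2 and 1 of Aldh3a2 differed between strains with 1 kidney, and 1, 3 and 1 with 2, beside 17.7% and 11.0% of all 14167 genes. Next to Aldh2, Acad10, an acyl-CoA dehydrogenase gene, was higher in SBH/y by 0.48 ± 0.06 (SE; limma adjusted p = 6.17e-07) with 1 kidney and by 0.46 ± 0.06 (adjusted p = 4.38e-06) with 2. Near Aldh1a1, Anxa1, the annexin A1 gene, was higher by 0.50 ± 0.07 (limma adjusted p = 9.1e-06) and Gda, the guanine deaminase gene, by 0.55 ± 0.09 (adjusted p = 3.82e-05) with 1 kidney. Near Aldh3a2, Mfap4, a gene of elastic fibres, was higher by 0.76 ± 0.11 with 1 kidney (limma adjusted p = 7.27e-06). Also higher were Tmem116 near Aldh2 (0.27 with 1 kidney and 0.44 with 2), Erp29 near Aldh2 (0.15 with 1) and Zfand5 near Aldh1a1 (0.24 with 2). Lower in SBH/y were Nmrk1 near Aldh1a1 (-0.25 with 1 kidney), Sh2b3 near Aldh2 (-0.22 with 2) and Map2k3 near Aldh3a2 (-0.21 with 2).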
